A study of Mus musculus with 6 samples.

Results

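The heat shock protein and chaperonin genes of the wild-type mouse retina were described from RNA sequencing. Members were the genes whose symbol begins with Hspa, Hspb, Dnaja, Dnajb, Dnajc or Cct followed by a digit, or with Hsp90, together with Hspd1, Hspe1 and Hsph1. The rule took 74 of 15465 genes, in 9 families: 13 HSP70, 1 HSP110, 3 HSP90, 7 small HSP, 2 mitochondrial chaperonin, 7 cytosolic chaperonin (CCT), 4 DNAJA, 11 DNAJB and 26 DNAJC genes. The rule and the families used symbols and no measured value. Hspa4 and Hspa4l, which are relatives of Hsph1, were therefore counted under HSP70.

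The samples were isolated retinas of C57BL6/J mice, all wild type, with no treatment or age in the labels. Each library was made from RNA pooled over 5 mice, and the 6 samples were 3 biological replicates with 2 technical replicates each. Both technical replicates were represented by 1 column of values, so the 3 columns, called pools 1, 2 and 3 here, gave n = 3 and a single group with no comparison between conditions. The pairing follows the sample titles, which conflict with the source labels, and all SDs and p-values rest on it. The series also speaks of other ocular tissue and genotypes, which were not analysed here.

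Levels are in RPKM, reads scaled to transcript length and to the size of the library, a unit that was inferred from the values. RPKM is a level per transcript length, so genes can be set side by side. Summed over all genes, the pools held 275995, 302634 and 249532 RPKM. How many reads lie behind these sums is unknown. The labelled tissue carried its defining transcripts: all 5 rod photoreceptor markers were present, with sums of 8555, 9417 and 8627 RPKM in pools 1, 2 and 3. Lens markers were present too, at 619.9, 304 and 1591 RPKM over 9 genes. Markers of smooth muscle and pericytes summed to 40.01, 36.17 and 10.04 RPKM over 4 genes. In such bulk tissue, fewer cells of a type and less RNA per cell cannot be told apart.

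Chaperones help other proteins to reach and keep their folded state. HSP70 proteins bind short unfolded stretches in a cycle of ATP hydrolysis, J-domain proteins (DNAJA, DNAJB and DNAJC) deliver clients and start the hydrolysis, and HSP110 proteins release the nucleotide. HSP90 acts later on nearly folded clients such as kinases, small heat shock proteins hold unfolding proteins without ATP, and the chaperonins HSP60 and CCT enclose a client within a ring. In photoreceptors, CCT assembles the transducin beta subunit and HSP90 matures the phosphodiesterase with the co-chaperone AIPL1.

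The promoters of some members hold letters of known stress elements, and these are shown because Hspd1 with Hspe1, and Hspa5 with Hsp90b1, are set against each other below. RefSeq promoter windows (build GRCm38.p6, 250 bases before to 50 after a start site) were matched by symbol for 60 of 74 members. The other 14 were Cct4, Dnajc2, Dnajc5, Dnajc11, Dnajc12, Dnajc18, Dnajc22, Dnajc30, Hsp90aa1, Hsp90ab1, Hspa8, Hspa9, Hspa13 and Hspb2. The heat shock element, bound by HSF1, was searched on both strands as 3 units that alternate between GAA and TTC with any 2 bases between units, starting with either, so that matches can overlap. It was in 198 of 32851 windows (0.603%) and in windows of 4 members, Hspd1, Hspe1, Hsph1 and Dnajb6. The ER stress response element, searched on both strands as CCAAT, any 9 bases and CCACG, was in 39 windows (0.119%) and in those of Hspa5, Hsp90b1 and Dnajc3. In Hsph1 the match lay after the start site, at bases 15 to 27 or 36 to 48 depending on which of 2 starts was used. Hspd1 and Hspe1 lie head to head on chromosome 1, with starts 216 bases apart in 1 of the 2 Hspd1 annotations, and the match stood in both windows as the same site. A match is a description of letters and not a measured site. The 250 bases before the start, on the gene's own strand and with the matches in capitals, read as follows.
Hspe1 (chr1:55087898-55088147, + strand): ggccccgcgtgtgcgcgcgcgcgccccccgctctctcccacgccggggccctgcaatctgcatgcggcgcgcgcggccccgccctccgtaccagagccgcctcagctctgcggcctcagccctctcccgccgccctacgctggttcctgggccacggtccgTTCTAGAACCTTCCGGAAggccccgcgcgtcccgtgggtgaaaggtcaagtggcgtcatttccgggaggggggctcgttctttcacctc
Dnajb6 (chr5:29735648-29735897, + strand): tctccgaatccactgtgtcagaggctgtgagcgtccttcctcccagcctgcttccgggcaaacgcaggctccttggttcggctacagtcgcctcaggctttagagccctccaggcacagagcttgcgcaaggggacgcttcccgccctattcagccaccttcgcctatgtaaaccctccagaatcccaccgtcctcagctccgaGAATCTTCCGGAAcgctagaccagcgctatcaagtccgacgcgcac
Hspa5 (chr2:34771840-34772089, + strand): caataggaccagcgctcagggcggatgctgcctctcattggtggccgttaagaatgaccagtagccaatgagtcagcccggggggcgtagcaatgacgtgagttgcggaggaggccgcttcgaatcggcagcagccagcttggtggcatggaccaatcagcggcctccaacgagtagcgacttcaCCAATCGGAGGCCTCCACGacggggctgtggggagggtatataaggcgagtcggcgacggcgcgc
Hsp90b1 (chr10:86705445-86705694, - strand): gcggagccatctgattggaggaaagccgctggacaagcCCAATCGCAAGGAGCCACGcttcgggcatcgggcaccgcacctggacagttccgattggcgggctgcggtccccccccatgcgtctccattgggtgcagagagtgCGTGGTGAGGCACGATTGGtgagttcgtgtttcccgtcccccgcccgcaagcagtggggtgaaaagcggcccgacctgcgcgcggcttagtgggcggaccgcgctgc
Dnajc3 (chr14:118937682-118937931, + strand): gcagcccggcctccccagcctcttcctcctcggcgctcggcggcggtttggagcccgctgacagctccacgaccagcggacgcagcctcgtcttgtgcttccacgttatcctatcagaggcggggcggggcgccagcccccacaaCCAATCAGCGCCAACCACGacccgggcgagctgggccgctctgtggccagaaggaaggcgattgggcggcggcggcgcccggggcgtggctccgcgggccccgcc
The Hspe1 stretch holds overlapping matches that run from base -89 to base -72, where the base before the start is -1. In Dnajb6 the match ran from -46 to -34, in Hspa5 from -65 to -47 and in Dnajc3 from -105 to -87. Hsp90b1 held 2 matches of the ER element, on opposite strands, between -212 and -89.

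Most chaperone genes were transcribed in the retina. At a threshold of 1 RPKM in every pool, 66 of 74 members were detected (89.2%), against 77.5% of all genes. The median member had 15.4 ± 1.46 RPKM (SD, n = 3), and the median over all genes was 6.09 ± 0.396 RPKM. A mean of at least 10 RPKM was found for 43 members and of at least 100 RPKM for 3, namely Hsp90ab1, Cct5 and Dnajc5. The 8 members below the threshold in at least 1 pool were Hspb2, Hspb3, Hspb7, Dnajb1, Dnajb3, Dnajb13, Dnajc2 and Dnajc22. For 27 members the symbol starts with another gene symbol followed directly by a digit, or is such a shorter symbol, as with Dnajb1 and Dnajb13. These are called digit-extended here (Hspb1 and Hspb11, the Dnajb1 block of 5, and 20 DNAJC genes), and their levels carry a limit on row identity that is described with the variation between pools.

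**Figure D1:**
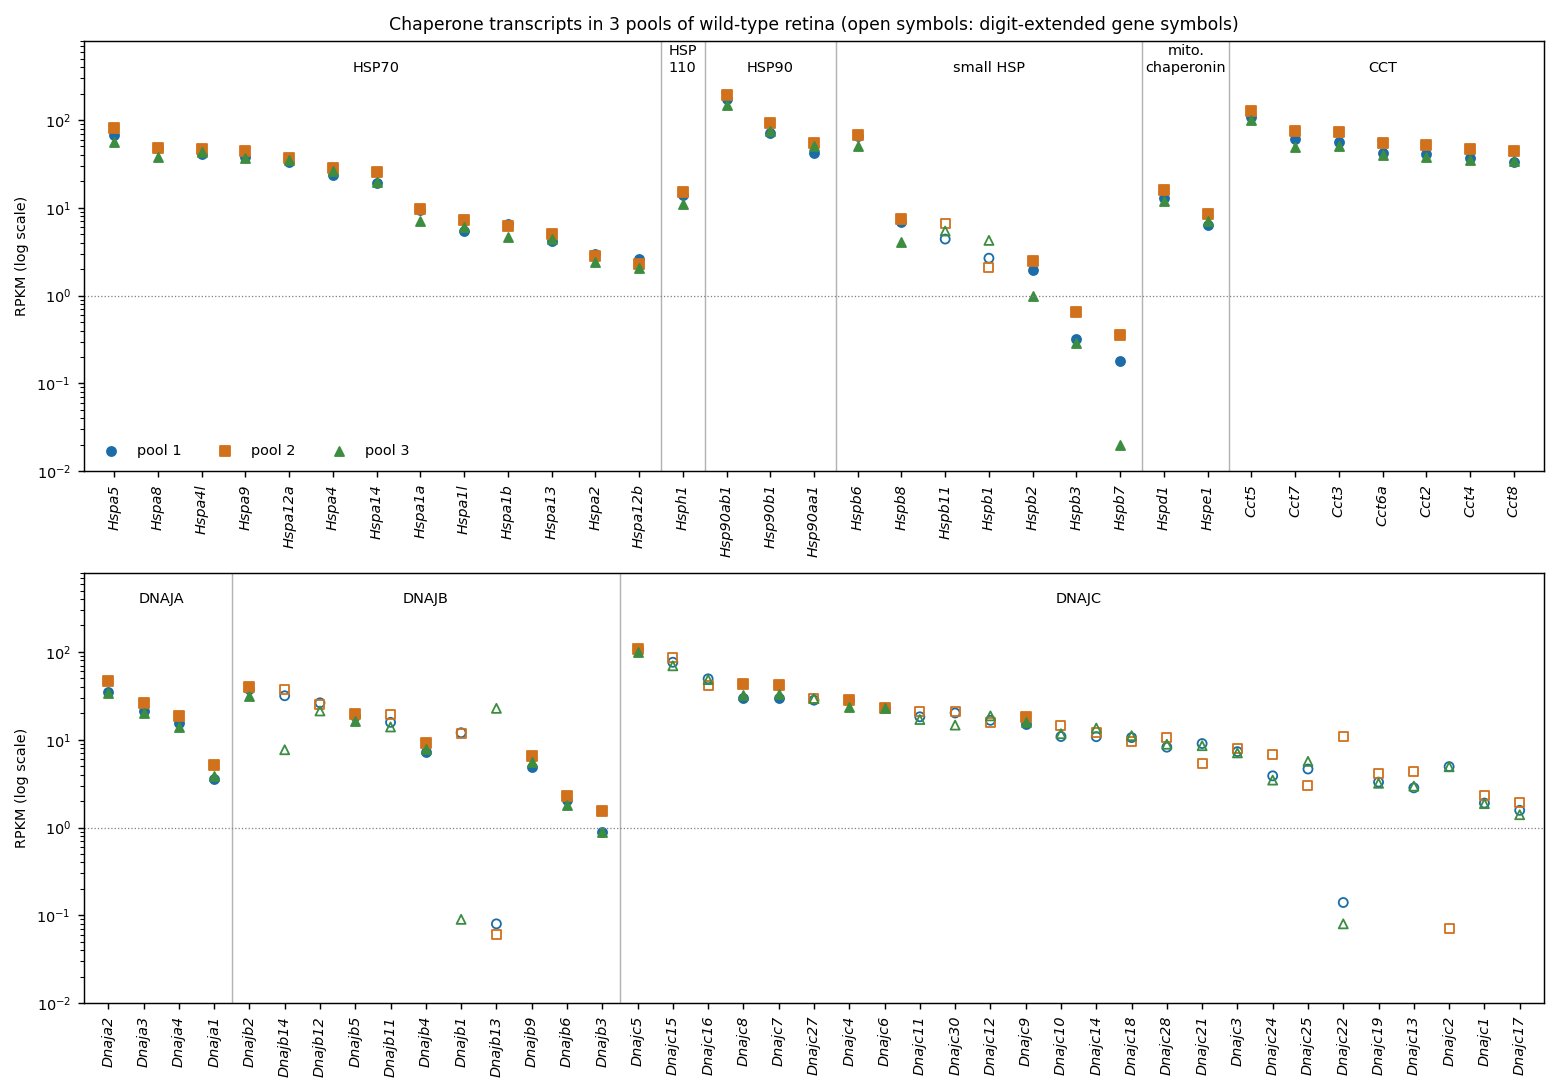
RPKM (log scale) of each of the 74 members in pools 1, 2 and 3, ordered within family by mean. The dotted line marks 1 RPKM, and open symbols are genes whose symbol is extended by, or extends, another symbol by digits. Most members lie close together in the 3 pools, while Dnajb1, Dnajb13, Dnajc2 and Dnajc22 span 70.6-fold or more.

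In RPKM, the HSP70 family was led by its ER member. Hspa5 (BiP), the main HSP70 of the endoplasmic reticulum, had 68.3, 80.99 and 56.3 RPKM in pools 1, 2 and 3. Hspa8 (HSC70), the constitutive cytosolic form that also strips clathrin from vesicles, had 47.6, 48.1 and 37.6 RPKM. Hspa4l, a relative of the HSP110 nucleotide exchange factors, had 41.3, 47.3 and 43.2 RPKM. All 13 members were detected, with a family median of 21.5 ± 3.66 RPKM, and Hspa5 took 22.0 ± 1.81% of the family's summed RPKM and Hspa8 14.3 ± 1.26%. With values multiplied by transcript length Hspa4l led instead, with 33.0 ± 1.25%. Of all 50-base words in Hspa8 transcripts, 73.4% also occur in other genes, and none of those in Hspa5 do. Reads of Hspa8 could thus be lost in the authors' counting, so the order of Hspa5 and Hspa8 is uncertain. The levels of Hspa8 and Hspa4l overlapped over the pools, so that these neighbours in the order did not differ beyond their spread.

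The mitochondrial HSP70, Hspa9 (mortalin), had 37.8, 44.6 and 36.6 RPKM. In the log2 ratio, Hspa5 exceeded Hspa9 by 0.78 ± 0.13, a fold of 1.71. Hspa12a, a distant HSP70 relative, followed with 33.3, 36.6 and 35.5 RPKM. Below these lay Hspa4, a nucleotide exchange factor, at 23.6, 28.4 and 26.02 RPKM and Hspa14, which acts at the ribosome in human cells, at 19.03, 25.7 and 19.8 RPKM. Hspa4 was lower than its close relative Hspa4l in each pool, by a log2 ratio of -0.76 ± 0.04. Hsph1 (HSP105), a further cytosolic exchange factor and the only gene placed in HSP110 by its symbol, had 13.9, 15.3 and 11.1 RPKM. Hspa4 exceeded Hsph1 by 0.95 ± 0.24 on the log2 scale, a fold of 1.94.

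The stress-inducible HSP70 genes were present well below the constitutive form. Hspa1a had 9.36, 9.77 and 7.03 RPKM in pools 1, 2 and 3. Hspa1b, its near-identical neighbour on chromosome 17, had 6.47, 6.15 and 4.71 RPKM. Hspa8 exceeded Hspa1a by a log2 ratio of 2.34 ± 0.06 (5.07-fold) and Hspa1b by 2.93 ± 0.06 (7.60-fold), in every pool. Reads of these genes could be split or lost in the authors' counting: of all 50-base words in Hspa1a transcripts, 66.3% also occur in another gene, 58.8% in Hspa1b, and for Hspa1b the share was 62.3%. Their promoter windows also differ at only 4 of 300 positions. For Hspa8, 73.4% of words recur elsewhere, in 13 genes of which 12 are pseudogenes, so its level is as uncertain. Set beside these, the immediate early list (Fos, Junb, Egr1 and 3 others), which marks recent stimulation of tissue, summed to 49.96, 49.07 and 42.84 RPKM, and its part in the inducible levels was not tested.

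Members of HSP70 that are known best from testis or vessels were low. Hspa1l, a testis-enriched form, had 5.48, 7.27 and 6.10 RPKM, with 71.4% of its words shared with an antisense gene. Hspa2, required for sperm formation, had 2.96, 2.81 and 2.42 RPKM, which was below Hspa8 by 15.7-fold. The lowest member, Hspa12b, a gene of endothelial cells, had 2.60, 2.31 and 2.08 RPKM. Hspa13, a microsomal HSP70 that lacks the substrate-binding part, stood between Hspa1l and Hspa2 in every pool, at 4.15, 5.01 and 4.40 RPKM. All 4 lay below Hspa14 in every pool.

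All 3 HSP90 genes were among the abundant transcripts. Hsp90ab1, the constitutive cytosolic form and the highest of the 74 members, had 172, 195 and 147 RPKM. Hsp90b1 (GRP94), the ER form, had 70.3, 93.7 and 74.4 RPKM. Hsp90aa1, the inducible cytosolic form, had 42.03, 54.7 and 50.8 RPKM. Hsp90ab1 took 57.1 ± 3.22% of the family sum and Hsp90b1 26.5 ± 1.48%. The ranges of the 3 genes did not overlap, and Hsp90ab1 stood above Hsp90aa1 by a log2 ratio of 1.80 ± 0.25 (3.47-fold). Of the words in Hsp90aa1, 58.5% recur in 4 pseudogenes, against 4.49% in Hsp90ab1, so the lower level of Hsp90aa1 is the less certain. The ER forms of both machines stood close: Hsp90b1 over Hspa5 gave log2 ratios of 0.04, 0.21 and 0.40, a mean of 0.22 ± 0.18.

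All 7 members of the cytosolic chaperonin were detected and abundant, with means between 37.2 and 112 RPKM and a median of 45.5 ± 7.88 RPKM. Cct5, which encodes the epsilon subunit, had 108, 128 and 99.8 RPKM in pools 1, 2 and 3. Cct7 (eta) had 61.04, 75.4 and 49.3 RPKM and Cct3 (gamma) 56.1, 72.4 and 50.4 RPKM. These 3 were the highest, and Cct7 and Cct3 changed places in pool 3. Cct6a (zeta) averaged 45.5 ± 7.88 RPKM, Cct2 (beta) 43.8 ± 7.66, Cct4 (delta) 39.8 ± 6.61 and Cct8 (theta) 37.2 ± 6.11 (SD, n = 3 each). These 4 differed by less than their SD from the next in order, yet kept the same order within every pool. Tcp1, the alpha subunit, lies outside the symbol rule and is given to complete the ring: it had 29.3, 36.9 and 27.99 RPKM and was lowest in each pool. The symbol Tcp1 is digit-extended as well.

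The ring holds each of its 8 subunits in equal number, and the transcripts were compared on that footing. From the highest to the lowest of 8 subunits, the log2 ratio was 1.88, 1.80 and 1.83 in pools 1, 2 and 3 (1.83 ± 0.04), a fold of 3.57. Without Cct5 it was 0.98 ± 0.11, a fold of 1.97. Cct5 alone stood above the next subunit by 0.86 ± 0.11 on the log2 scale, or 1.81-fold. The excess of Cct5 was thus larger than the spread between pools. When values were multiplied by transcript length, for the 7 subunits with a length, the range was 1.61 ± 0.04. No Cct5 word of 50 bases recurs in another gene, and for Cct7 and Cct8 the share was 8.28% and 6.10%; Cct6a was not measured in this respect. Cct6b, the testis form of zeta, was not among the rows.

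**Figure D2:**
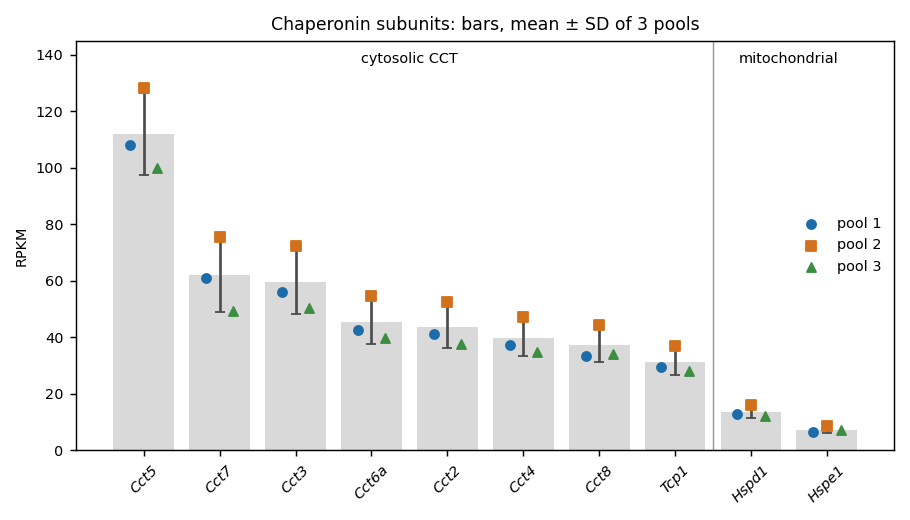
RPKM of the 8 cytosolic chaperonin subunits and the 2 mitochondrial chaperonin genes. Grey bars are means over 3 pools with the SD, and points are the pools. Cct5 stands at 112 RPKM with its lowest pool at 99.8, above the highest value of Cct7 at 75.4, and Hspd1 and Hspe1 lie below each cytosolic subunit.

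The mitochondrial chaperonin was lower than the cytosolic one. Hspd1 (HSP60), the ring protein, had 12.95, 15.9 and 11.95 RPKM in pools 1, 2 and 3. Hspe1 (HSP10), its lid, had 6.35, 8.56 and 7.02 RPKM. Both start beside the stretch printed above for Hspe1, and Hspd1 was higher in every pool, by a log2 ratio of 0.89 ± 0.13 (1.85-fold). Each shares 44.8% of its words with other genes, among them 9 pseudogenes for Hspd1 and 5 for Hspe1, so both the levels and the ratio carry that uncertainty.

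Of the J-domain families, DNAJA was detected in full and dominated by Dnaja2. Dnaja2, a main cytosolic partner of HSC70, had 34.6, 46.1 and 34.1 RPKM. Dnaja3 (TID1), the mitochondrial member, had 21.4, 26.2 and 20.1 RPKM, and Dnaja4 15.6, 18.8 and 14.1 RPKM. Dnaja1, the other main cytosolic partner, was far lower at 3.58, 5.15 and 3.89 RPKM. Dnaja2 made up 47.0 ± 0.887% of the family sum, and Dnaja1 lay below it by a log2 ratio of -3.16 ± 0.07, or 0.112-fold, in each pool. The 4 genes did not overlap. Of the words in Dnaja1, 28.0% recur in other genes including pseudogenes, and 51.9% of those in Dnaja4 lie in the overlapping gene Wdr61.

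In DNAJB the neuronal member led. Dnajb2 (HSJ1), a ubiquitin-binding J protein enriched in neurons, had 37.7, 39.7 and 31.8 RPKM and took 23.8 ± 0.799% of the family sum. Dnajb6, which suppresses aggregation of polyglutamine proteins, had 2.04, 2.27 and 1.81 RPKM, with 30.7% of its words shared with other genes. Dnajb11 (ERdj3), a BiP partner in the ER, had 15.8, 19.5 and 13.97 RPKM. The lowest member was Dnajb3, a testis gene, at 0.88, 1.54 and 0.88 RPKM. Dnajb4, Dnajb5, Dnajb9 and Dnajb12 averaged between 5.68 and 24.3 RPKM and differed between pools by at most 1.37-fold. Of the 11 genes 8 were detected, with a median of 10.5 ± 2.40 RPKM. Without the 5 digit-extended symbols the median was 6.88 ± 0.962 RPKM and the share of Dnajb2 51.0 ± 1.66%. With values multiplied by transcript length the digit-extended Dnajb14 led instead, with 41.7 ± 18.4%. Dnajb1, Dnajb13 and Dnajb14 are described with the variation between pools.

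Dnajc5 was the most abundant J-domain gene in RPKM. It encodes cysteine string protein, the synaptic vesicle chaperone that keeps SNARE proteins folded, and had 108, 107 and 101 RPKM in pools 1, 2 and 3. Its highest and lowest pools differed by 1.07-fold. Dnajc15, of the mitochondrial inner membrane, had 76.3, 85.99 and 69.5 RPKM. Dnajc16, an ER membrane protein, had 49.4, 41.2 and 48.4 RPKM. Dnajc5 took 19.7 ± 0.910% of the DNAJC sum and Dnajc15 14.4 ± 0.744%, and the ranges of the leading 3 did not overlap. With values multiplied by transcript length the digit-extended Dnajc15 led instead, with 23.6 ± 1.58%. Dnajc6 (auxilin), which recruits HSC70 to clathrin-coated vesicles, had 22.9, 23.1 and 23.1 RPKM. As deposited it had the smallest range of all 74 members, 1.01-fold. After scaling by a trimmed mean of log ratios, its SD over pools was 0.11 in log2, near the median of 0.14 for all members. Dnajc5 exceeded Dnajc6 by a log2 ratio of 2.19 ± 0.06 (4.56-fold).

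The DNAJC means ran between 1.63 and 105 RPKM. The lowest was Dnajc17, a splicing-associated protein, at 1.57, 1.93 and 1.40 RPKM. Dnajc3 (p58IPK), an ER co-chaperone of BiP, had 7.32, 7.95 and 7.08 RPKM and varied by 1.12-fold. Its level was below that of Dnajb11 in every pool, and both were below Hspa5. Dnajc7, a cytosolic co-chaperone of HSP70 and HSP90, Dnajc8, which is bound to splicing factors, and Dnajc27, a Rab-like GTPase, averaged 35.0, 35.4 and 29.2 RPKM. The other 12 genes (Dnajc1, Dnajc4, Dnajc9, Dnajc10, Dnajc11, Dnajc12, Dnajc13, Dnajc14, Dnajc18, Dnajc19, Dnajc28 and Dnajc30) averaged between 2.02 RPKM for Dnajc1 of the ER membrane and 26.8 RPKM for Dnajc4, and the widest range among them was 1.52-fold, for Dnajc13 of endosomes. In all, 24 of 26 DNAJC genes were detected, with a median of 12.3 ± 1.28 RPKM. Without the 20 digit-extended symbols the median was 30.8 ± 3.91 RPKM and the share of Dnajc5 43.7 ± 2.62%.

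Small heat shock genes had the lowest family median, although their leader was abundant. Hspb6 (HSP20), best known from muscle, had 65.1, 68.4 and 51.2 RPKM and made up 78.3 ± 1.43% of the family sum. Hspb8 (HSP22), which works with Bag3 in chaperone-assisted autophagy, had 6.84, 7.39 and 4.12 RPKM. Hspb11 (IFT25), which is a subunit of the intraflagellar transport complex of cilia, had 4.41, 6.70 and 5.44 RPKM. Hspb8 and Hspb11 overlapped, and both were far below Hspb6. Only 4 of 7 members reached 1 RPKM in every pool, and the family median was 3.08 ± 0.904 RPKM, or 1.81 ± 0.755 RPKM without Hspb1 and Hspb11. Hspb7, a heart and muscle protein, was lowest at 0.18, 0.36 and 0.02 RPKM. Hspb3, another muscle form, had 0.32, 0.65 and 0.29 RPKM.

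Several of these differed between pools beside markers of other tissues, although none was called as varying by the test described below. Hspb2, a muscle form that lies beside Cryab, had 1.98, 2.46 and 0.98 RPKM. As deposited it was lowest in pool 3, as were Hspb3, Hspb6, Hspb7 and Hspb8. That pool also had the lowest sum over all genes, 249532 RPKM. After scaling by a trimmed mean of log ratios, median log2 deviations from each gene's mean over pools were 0.12, 0.19 and -0.27 for the 7 genes. For all genes they were 0.00 in each pool. The smooth muscle and pericyte list (Acta2, Tagln, Myh11 and Cnn1) was also lowest in pool 3 as deposited, at 10.04 RPKM against 40.01 and 36.17 in pools 1 and 2. So was the list of pigment epithelium and melanocytes (6 genes), at 199.9 RPKM against 400.9 and 377 in pools 1 and 2. Within it Rpe65 alone was not lowest in pool 3, at 6.25, 20.06 and 6.74 RPKM. The skeletal muscle list (6 genes, 3 of them detected) summed to 8.84, 25.4 and 6.36 RPKM. Hspb1 (HSP25, the mouse counterpart of HSP27) had 2.67, 2.07 and 4.26 RPKM and was highest in pool 3, as was the lens list at 1591 RPKM. Within that list Mip alone was not highest in pool 3, at 41.38, 34.95 and 40.77 RPKM. The crystallins Cryaa and Cryab, which are outside the list, were lowest in pool 3. No listed marker was at 0 in all pools, and the part of these tissues in the small heat shock levels was not tested. Hspb1 over Hspb8 gave a log2 ratio of -1.02 ± 0.95 that was positive in 1 pool only (exact two-sided sign-flip test, p = 0.50). Of the words in Hspb1, 60.4% recur in other genes, chiefly a pseudogene, and 24.4% of those in Hspb2 lie in Cryab.

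**Figure D3:**
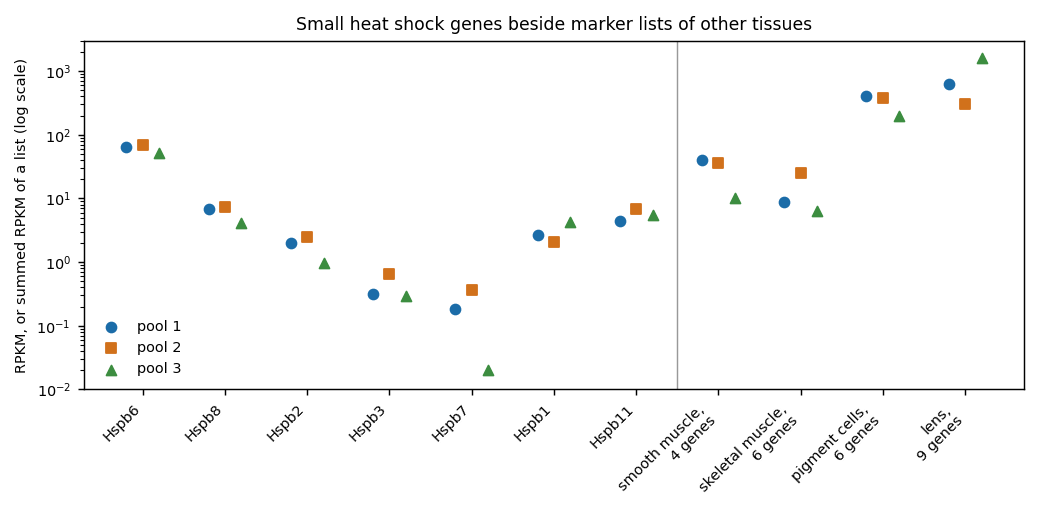
RPKM (log scale) of the 7 small heat shock genes in each pool, and the summed RPKM of 4 marker lists. As deposited, without scaling, Hspb2, Hspb3, Hspb6, Hspb7 and Hspb8 are lowest in pool 3, as are the sums of the muscle and pigment lists. Hspb1 is highest in pool 3, as is the sum of the lens list.

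Of the 14 pairs of related chaperones set against each other, 13 had values in both genes. The first-named gene was higher in every pool in 9 pairs and lower in every pool in 2. With 3 pools the exact sign-flip test cannot give a p below 0.25, which these 11 pairs reached, so no ratio could pass a threshold of 0.05. The remaining pairs were Hspb1 with Hspb8 and Dnajb6 with Dnajb1, whose log2 ratio of -0.50 ± 3.32 changed sign in pool 3 (exact sign-flip test, p = 1.00).

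Variation between pools was tested for each gene with limma, by setting its variance over the pools against that of genes of like abundance (F test with a robust trended prior, Benjamini-Hochberg adjustment over the 12562 genes that averaged at least 1 RPKM, threshold 0.05). Of 72 members tested, 5 were called as varying, against a background of 5.41% of all genes tested (679 genes), so the members' share was near that of all genes. They were Dnajb1, Dnajb13, Dnajb14, Dnajc2 and Dnajc22. All 5 are digit-extended, and of the 2088 genes tested with such symbols 29.8% were called. With a non-robust prior limma called 0 of the 72 and also 0 of all 12562 genes, and 5 members had an unadjusted p under 0.05.

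Among the Dnajb1 block, pool 3 stood apart. Dnajb1 (HSP40), the classical partner of inducible HSP70, had 12.01, 11.8 and 0.09 RPKM in pools 1, 2 and 3 (limma adjusted p = 3.69e-05). Dnajb13, a component of sperm and cilia axonemes, had 0.08, 0.06 and 22.8 RPKM (limma adjusted p = 3.02e-05). Dnajb14, an ER membrane protein, had 31.7, 37.6 and 7.69 RPKM (limma adjusted p = 0.00240). Without pool 3 none of the 3 was called (limma adjusted p = 0.996 for each). Pools 1 and 2 were alike for all 3 genes, and pool 3 was low for Dnajb1 and Dnajb14 and high for Dnajb13. Sorted from low to high within each pool, the 5 values of the block differed by at most 1.65-fold between pools at any position, while by symbol they differed by up to 380-fold. The lowest was 0.08, 0.06 and 0.09 RPKM and the highest 31.7, 37.6 and 22.8 RPKM. Sorting narrows differences by itself, and the order does not tell which symbol a value belongs to.

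In the Dnajc2 block it was pool 2. Dnajc2 (zuotin), which works at the ribosome, had 4.94, 0.07 and 4.92 RPKM (limma adjusted p = 8.49e-05). Dnajc22 had 0.14, 10.9 and 0.08 RPKM (limma adjusted p = 7.85e-05). Without pool 2 neither was called (limma adjusted p = 0.992 for Dnajc2 and 0.989 for Dnajc22). Pools 1 and 3 were alike, and pool 2 held the low value on Dnajc2 and the high value on Dnajc22. Neighbours in the block, Dnajc21 at 9.04, 5.36 and 8.55 RPKM, Dnajc24 at 3.88, 6.87 and 3.47 RPKM and Dnajc25 at 4.64, 3.04 and 5.67 RPKM, also parted in pool 2 and were not called. By symbol the block differed by up to 136-fold between pools, and by order within the pool by at most 2.00-fold. The levels of these 5 called genes are therefore given per pool only. Whether rows were displaced was not tested against reads, and a value on the wrong row in every pool would not show, so the levels of all 27 digit-extended members carry this limit.

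**Figure D4:**
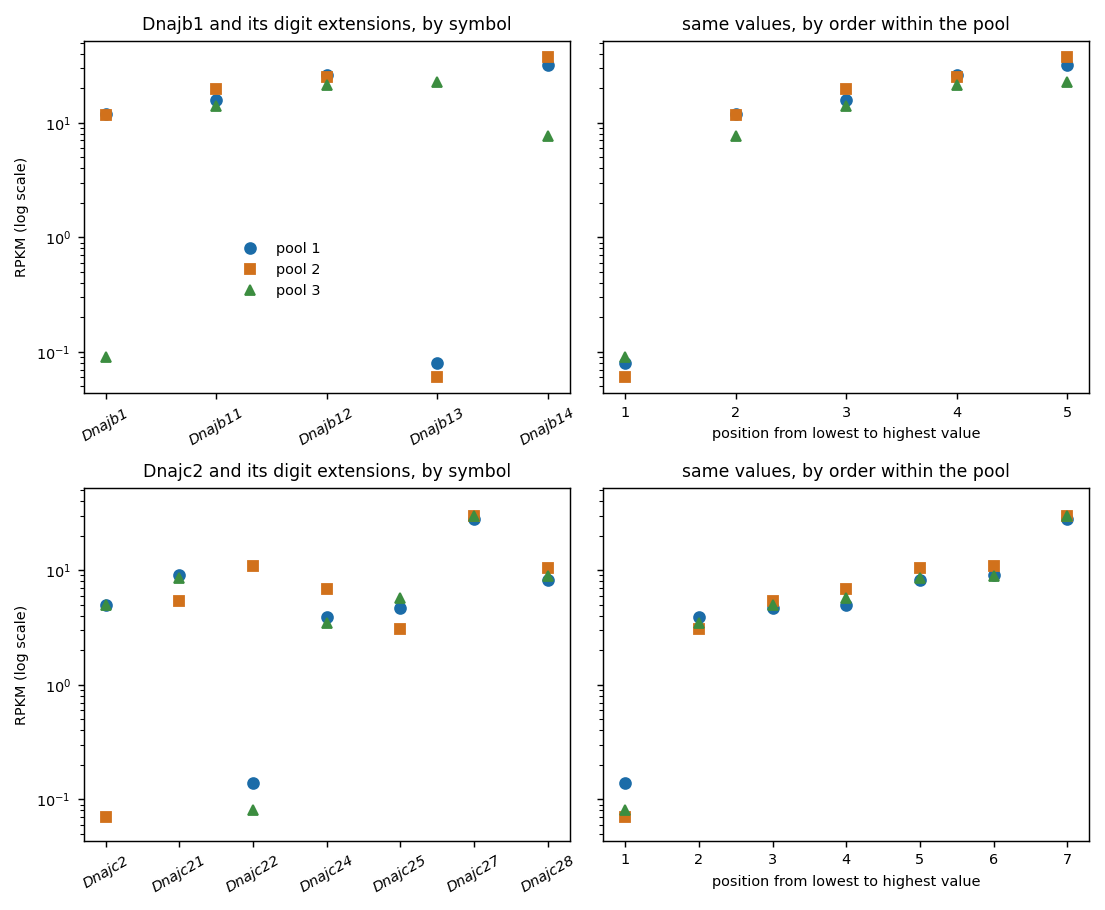
RPKM (log scale) of the Dnajb1 block (top, 5 genes) and the Dnajc2 block (bottom, 7 genes) by symbol on the left and by position from the lowest to the highest value within each pool on the right. By symbol pool 3 departs in the Dnajb1 block and pool 2 in the Dnajc2 block, and by position the pools lie within 1.65-fold and 2.00-fold.

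When the test was repeated without digit-extended symbols, 0 of 45 members were called by limma, against 0.936% of the 10474 genes. A gene that was not called is not thereby shown to be steady. At an unadjusted p under 0.05 there were 2 of the 45, Hspb2 (limma adjusted p = 0.0877) and Hspb8 (limma adjusted p = 0.514). No share over all genes stands beside this count, so it is not a result about the members. A non-robust prior on the same genes called 0 members as well, and 48 of the 10474 genes. Over all genes and without scaling, Hspb2 was called (limma adjusted p = 0.00455). The median SD over pools was 0.14 on the log2 scale for all members and 0.15 for all genes tested. Without the digit-extended symbols, 43 of 47 members were detected and their median was 24.1 ± 1.89 RPKM.

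A smaller shift ran through many members. After scaling by a trimmed mean of log ratios, the 7 CCT genes and Tcp1 were all highest in pool 2, with median log2 deviations from each gene's mean over pools of -0.05, 0.14 and -0.08. The same held for all 4 DNAJA and both mitochondrial chaperonin genes, so that 13 of 13 members of these families, grouped after their values were seen, were highest in pool 2. Over the 47 members without digit-extended symbols it was 28 (59.6%). Of the 45 among them that averaged at least 1 RPKM it was 26 (57.8%), against 34.9% of the 10474 genes under the same filter. None of the 13 was called by limma (adjusted p = 0.993 for each). Transcript length moved with the same pattern: in the shortest of 3 equal classes of genes by length (up to 2181 bases) 64.0% were highest in pool 2, in the middle class 33.7%, and in the longest (from 3787 bases) 6.66%. Of genes as long as the CCT transcripts (1853 to 2484 bases), 47.6% were highest in pool 2. Among members without digit-extended symbols the shares by class were 10 of 15, 16 of 26 and 1 of 5. Unlike the gene shares, these counts include Hspb3 and Hspb7, which averaged under 1 RPKM, and Cct6a, without a length, is left out. The part of length in the shift of the chaperonins was not tested.

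**Figure D5:**
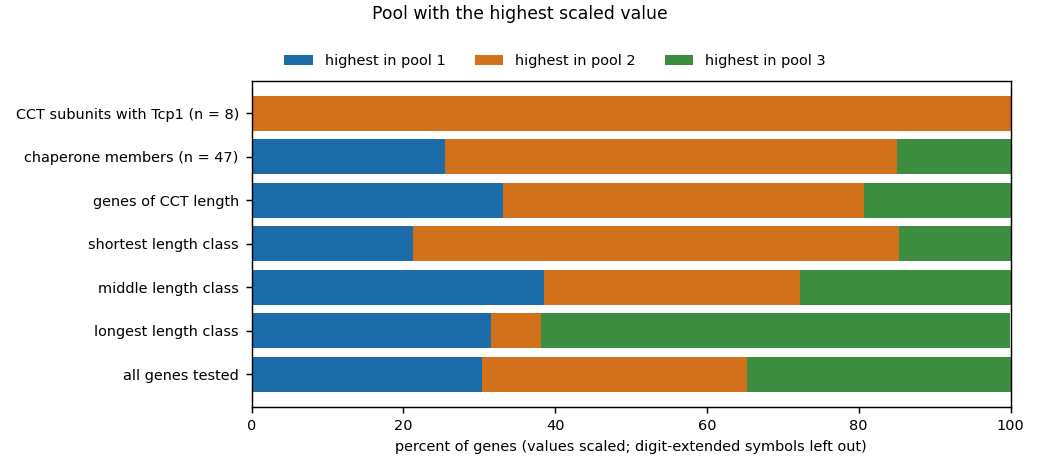
Percent of genes whose scaled value was highest in pool 1, 2 or 3, for 8 CCT subunits, 47 members, genes of CCT transcript length, 3 length classes and all genes tested, without digit-extended symbols other than Tcp1. All 8 CCT subunits were highest in pool 2, as were 59.6% of members, 64.0% of the shortest class, 6.66% of the longest class and 34.9% of all genes tested. The genes tested averaged at least 1 RPKM, while 2 of the 47 members did not.

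Of 64 listed co-chaperones and regulators, 62 were among the rows and 59 were detected (95.2%), with a median of 17.6 ± 0.985 RPKM. The highest were Cryaa, Pdc, Aipl1 and Cryab, known from lens or photoreceptors, followed by Fkbp8. Cryaa, the alpha A crystallin and a small heat shock relative, had 2058, 1569 and 1395 RPKM. Pdc (phosducin), which binds transducin beta and gamma, had 719, 1202 and 924 RPKM. Aipl1, the photoreceptor co-chaperone of HSP90, had 683, 757 and 527 RPKM. Cryab averaged 171 ± 21.6 RPKM, and Fkbp8, an immunophilin of the mitochondrial and ER membranes, 154 ± 22.8. In each pool these 5 were above every member other than Hsp90ab1. Partners of HSP70 and HSP90 ranged widely, and the following were picked after their values were seen. Fkbp4, an immunophilin of HSP90, averaged 135 ± 27.5 RPKM, Stip1, which links the 2 machines, 47.1 ± 6.80, and Hsf1, the factor that binds the heat shock element, 29.6 ± 3.38. Ptges3 (p23), whose symbol is digit-extended, averaged 2.72 ± 0.636 RPKM and Bag3, an HSP70 exchange factor, 2.15 ± 0.333. The lowest was Pdcl at 0.01, 0.02 and 0.18 RPKM. Its symbol is digit-extended, with Pdcl2 at 7.24, 8.95 and 7.17 RPKM and Pdcl3 at 26.98, 34.18 and 28.57 RPKM. Their levels carry the same limit on row identity as those of the digit-extended members, so the low level of Pdcl is uncertain. Of 59 tested, 1 was called by limma, the digit-extended Bbs12, a chaperonin-like gene of the Bardet-Biedl complex, at 21.7, 6.37 and 22.1 RPKM (adjusted p = 0.00277), and 0 of 50 were called by limma without such symbols. At an unadjusted p under 0.05 there were then 3 of 50, Vbp1, Serpinh1 and Hsf2. This count too has no share over all genes beside it, and nothing is read from it.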

How the data were processed

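RNA sequencing of C57BL6/J retina gave 3 tables of 15468 rows, 1 per biological replicate; 3 repeated symbols were kept once. The deposited values are taken as RPKM computed by the authors, inferred from their scale, since no header names a unit, and FPKM would look the same. Reads were handled with GSNAP and HTSeq on mm9, per the submitters' processing notes. Versions, annotation, strand and filters have no source here, and depth is unknown, so no counting interval is given.

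From these values, ratios and tests used log2(RPKM + 0.1), which understates differences of low genes. For the test of variation, each pool was scaled by its trimmed mean of log ratios (trimming 30% of ratios and 5% of means at either end; factors 0.984, 1.09 and 0.931, or -0.02, 0.13 and -0.10 in log2). It was run in limma 3.58.1 under R 4.3.3 and checked on simulated data. Pair ratios used an exact sign-flip test. Nothing says more of the replicates than pools of 5 mice, so p-values measure the spread between these pools. GENCODE M21 transcripts gave lengths and shared 50-base words, and RefSeq GRCm38.p6 gave symbols and promoters; neither is the build of the files.

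Named genes were the 3 highest and the lowest of each family, all chaperonin genes, members of the pairs, members called as varying, digit-extended members over 4-fold between pools and 9 of known role. Members, lists and pairs were chosen with earlier results of these data known. Alternatives were another pseudocount, threshold, filter, scaling or prior, values times length, and leaving out each pool, digit-extended symbols or members with shared words.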

Additional observations from a re-analysis of the deposited data

How the results depend on the processing

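The count of pairs with the first gene higher in every pool was 9 under a pseudocount of 1 RPKM, with values times length and without each pool in turn (9 to 9). The mean ratio of Dnajb6 to Dnajb1, -0.50 ± 3.32 in log2, was 0.50 without pool 1 and 0.41 without pool 2. The count of varying members, 5 of 72, depended on the setting. It was 0 with a non-robust prior on all genes (where 0 of 12562 genes were called, with 5 members at an unadjusted p under 0.05), 0 when digit-extended symbols were left out, and 0 with both changes, a combination chosen after seeing the data. Without digit-extended symbols 98 of 10474 genes were called, and 48 with both changes. Leaving out a pool gave 2 to 5: without pool 3 the calls of Dnajb1, Dnajb13 and Dnajb14 were lost (2 remained), and without pool 2 those of Dnajc2 and Dnajc22 (3 remained). Over all 12562 genes, 466, 304 and 415 were called without pools 1, 2 and 3. Without scaling 7 members were called, beside 794 of all 12562 genes. Hspb2 was among the 7 (limma adjusted p = 0.00455, against 0.0877 to 0.291 as given above and without digit-extended symbols).

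Detected members numbered 66; without digit-extended symbols 43 (of 47), at thresholds of 0.1 and 5 RPKM 69 and 50, and without each pool 66 to 68. The median over families of the family medians was 14.0 RPKM; it was 19.4 without digit-extended symbols, 20.1 for members sharing under 25% of words (chosen after seeing the data), 38.6 with values times length, and 13.3 to 14.6 without each pool. The median leading share was 37.6%; it was 49.0% without digit-extended symbols, 46.5% with values times length, and 37.4% to 37.7% without each pool. The CCT range of 1.83 was 1.61 with values times length and 1.81 to 1.85 without each pool. Highest values in pool 2 numbered 13 of 13 for CCT, DNAJA and the mitochondrial chaperonin with or without scaling. Over 47 members the share was 89.4% without scaling. It was 66.0% of the 10474 genes that averaged at least 1 RPKM, a filter not set on the 47. With 1 group, no paired analysis was possible because no groups share replicate numbers. The 13 members that share 25% or more of their words had a median of 7.35 ± 1.08 RPKM, and the 60 with less 18.4 ± 1.83 RPKM. Depth is unknown and limits what can be said of values near 0.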

Other observations

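J-domain partners of BiP in the endoplasmic reticulum, picked after their values were seen, were all below Hspa5 in every pool. Dnajb11 (ERdj3) had 15.8, 19.5 and 13.97 RPKM in pools 1, 2 and 3. Dnajc10 (ERdj5), a disulfide reductase, had 10.9, 14.4 and 11.7 RPKM. Dnajb9 (ERdj4) had 4.84, 6.61 and 5.60 RPKM and Dnajc1 (ERdj1) 1.90, 2.30 and 1.87 RPKM. Dnajb11, Dnajc10 and Dnajc1 are digit-extended symbols. The unfolded protein response list (Ddit3, Atf4, Xbp1 and 5 others) summed to 295, 357 and 262 RPKM. Like Hspa5 and Hsp90b1 it was highest in pool 2 as deposited, but so were 64.3% of the 12562 genes tested. The part of this response in the levels of Hspa5 and Hsp90b1 was not tested. Among genes of mitochondrial proteins, Dnajc15 was above Hspa9, Hspd1 and Hspe1 in every pool. Dnajc19, part of the import motor of the inner membrane, was below all 3 at 3.29, 4.09 and 3.19 RPKM. Dnajc15 and Dnajc19 are digit-extended symbols too, and Hspd1 and Hspe1 each share 44.8% of their words with other genes. These comparisons carry both limits.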
